A study of Mus musculus with 2 samples.

Results

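Osteoblast lineage cells of the early rib callus were taken as the cells in which at least 5 unique molecular identifiers (UMIs, each a counted transcript molecule) came from *Ibsp*, *Bglap*, *Bglap2* and *Sp7* together. They also had to have 200 or more detected genes, under 10% of UMIs on mitochondrial genes, at least 1% of UMIs on *Col1a1*, *Col1a2* and *Col3a1*, and no UMI of the leukocyte gene *Ptprc* or the endothelial gene *Pecam1*. This rule found 231 cells among the 21259 barcodes of both single-cell RNA sequencing libraries, 95 among 10747 control and 136 among 10512 *Smo* cKO barcodes. Cells that met the rule except for the 4 genes are called connective cells here, and those with 0 UMIs of the 4 genes are called other connective cells. The control was Sox9:CreER;R26:tdT;Smof/+, with 1 floxed *Smo* allele, and the *Smo* cKO was Sox9:CreER;R26:tdT;Smof/f, with both alleles floxed. Mice of both genotypes were 8 to 12 weeks old, carried the CreER transgene and the tdTomato reporter, were injected with tamoxifen 3 times between day -7 and day -5, and had 3 mm of rib resected, and calluses were taken at 4 days post injury (dpi). Each library pooled the calluses of 3 animals, and the CreER acts in cells that express *Sox9* around the time of tamoxifen, so that cells outside that lineage keep their alleles.

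Osteoblasts are the cells that lay down bone. They arise from mesenchymal progenitors under the transcription factors Runx2 and then Sp7 (osterix), first deposit a matrix rich in type I collagen, and then mineralize it with alkaline phosphatase (*Alpl*) and with acidic matrix proteins such as bone sialoprotein (*Ibsp*) and osteopontin (*Spp1*). Osteocalcin, encoded in the mouse by *Bglap* and *Bglap2*, is a marker of mature osteoblasts, and some of these cells go on to become osteocytes embedded in the bone.

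Runx2 binds DNA at a short element with the letters ACCACA, long studied in the osteocalcin promoter. The promoters of 4 genes that the values below turn on are shown to place these letters, which are in capitals. Each sequence runs 5′ to 3′ on the strand of its gene, from 250 bases before to 50 bases after the start in RefSeq, and comes from RefSeq on GRCm38.p6. For *Ibsp* this start lies inside the gene as GENCODE places it, so that window begins later than one drawn from the GENCODE start. They lie at chr3:88384417-88384716 on the minus strand for *Bglap*, and on the plus strand at chr5:104299037-104299336 for *Ibsp*, chr9:7272264-7272563 for *Mmp13* and chr5:104434861-104435160 for *Spp1*.
Bglap: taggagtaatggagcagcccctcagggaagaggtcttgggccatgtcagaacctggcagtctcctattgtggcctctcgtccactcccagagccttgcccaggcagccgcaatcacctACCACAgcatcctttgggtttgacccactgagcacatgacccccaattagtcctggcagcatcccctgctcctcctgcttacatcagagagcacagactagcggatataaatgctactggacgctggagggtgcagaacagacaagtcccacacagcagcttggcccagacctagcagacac
Ibsp: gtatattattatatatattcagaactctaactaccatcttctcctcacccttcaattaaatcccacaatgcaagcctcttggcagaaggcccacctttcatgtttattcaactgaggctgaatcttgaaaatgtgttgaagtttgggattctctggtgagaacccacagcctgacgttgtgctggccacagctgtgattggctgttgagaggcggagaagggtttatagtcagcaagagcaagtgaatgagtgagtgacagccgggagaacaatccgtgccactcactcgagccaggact
Mmp13: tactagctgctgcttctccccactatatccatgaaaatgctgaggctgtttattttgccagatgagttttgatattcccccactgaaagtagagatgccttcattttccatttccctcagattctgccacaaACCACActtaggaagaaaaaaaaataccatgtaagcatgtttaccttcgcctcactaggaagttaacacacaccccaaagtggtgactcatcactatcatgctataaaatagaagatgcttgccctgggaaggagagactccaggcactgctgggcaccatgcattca
Spp1: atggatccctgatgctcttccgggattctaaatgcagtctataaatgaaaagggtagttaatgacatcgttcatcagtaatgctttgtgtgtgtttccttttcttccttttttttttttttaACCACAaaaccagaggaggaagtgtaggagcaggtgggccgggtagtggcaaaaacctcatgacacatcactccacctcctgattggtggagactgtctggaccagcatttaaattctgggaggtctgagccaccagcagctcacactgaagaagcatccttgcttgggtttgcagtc
The letters ACCACA, or TGTGGT for the other strand, began at position -132 in *Bglap*, -118 in *Mmp13* and -128 in *Spp1*, counted from the RefSeq start of the gene, and were not found in the *Ibsp* window. They were found in 16.8% of the 32851 RefSeq windows of this length and in 18.9% of the 27025 genes with a window. Of the 4 rule genes and the 15 genes highest against other connective cells, 13 had a window and 4 of these held the letters. These matches describe the sequence and are not evidence of binding.

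The members were deep beside all barcodes, and a rule of at least 5 UMIs favors deep cells. Connective cells with 1 to 4 UMIs of the 4 genes, which are not members, had median depths of 15316 control and 18078.5 *Smo* cKO UMIs. The control library held 105367110 UMIs with a median of 7743 per barcode, and the *Smo* cKO library held 112700220 with a median of 7702.5. Members had 537 to 54447 UMIs (median 14549) if control and 504 to 56463 UMIs (median 15399) if *Smo* cKO. Their summed depth was 1722426 and 2483349 UMIs. They had a median of 3330 and 3511 detected genes, and 84 and 120 of them had over 2000 genes, the upper limit that the study set. That limit would leave 11 control and 16 *Smo* cKO members and was not used. Levels are given as CPM, the UMIs of a gene summed over a group of cells and scaled to the total UMIs of those cells. With 1 library per genotype no test was possible, and every interval is a 95% interval that covers counting error only, not the spread between animals.

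The libraries shared 613 barcodes. In 493 of these, the shallower cell had under 10% of the UMIs of the deeper one, and the median ratio over all 613 was 0.0169. Of the members, 13 control and 19 *Smo* cKO cells had a barcode that the other library also held, 2 barcodes were members in both, and 1 member in each library was such a shallow copy. No doublet caller was run. Marker UMIs of macrophages, neutrophils, muscle or endothelium, at least 3 in sum, were found in 49 of 95 and 96 of 136 members, but these made up 0.1% or more of the UMIs in 11 and 13 members.

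The label was checked against *Alpl*, the osteoblast marker that the rule did not use. *Alpl* (chromosome 4 of GRCm38, 137741733 to 137796384) was found in 53 of 95 control and 65 of 136 *Smo* cKO members, against 61 of 5729 and 46 of 4468 other connective cells. When every cell was thinned to 5000 UMIs, which left out 7 and 13 shallower members, *Alpl* was found in 29.5% and 29.3% of members and in 0.427% and 0.465% of other connective cells. *Runx2*, the lineage's early transcription factor, stood at 90.6 and 95.8 CPM in members and at 63.2 and 64.0 CPM in other connective cells, so that it separated the groups far less than *Alpl* did. *Dlx5*, another osteoblast transcription factor, had 15.1 and 13.7 CPM against 1.25 and 1.51, low in every group of cells. Of the 15 factors listed, 5 were compared against other connective cells as below, and *Sp7*, which chose the cells, was the 1 that was 2-fold or more higher.

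Osteoblast lineage cells made up a larger share of connective cells in the *Smo* cKO library. They were 1.51% of the 6303 control connective cells (Clopper-Pearson, 1.22% to 1.84%) and 2.71% of the 5024 *Smo* cKO connective cells (2.28% to 3.19%). The difference was 1.20 points, with a Newcombe interval of 0.669 to 1.76. Of all filtered cells they were 0.945% and 1.43%, a difference of 0.486 points (0.183 to 0.796), and connective cells as a whole were 62.7% and 52.8%. Depth moved with the share, since connective cells had median depths of 10780 control and 13270.5 *Smo* cKO UMIs. With all connective cells thinned to 5000 UMIs and 3 UMIs of the 4 genes required, the shares were 1.19% and 1.94%. Cells with 1 to 4 UMIs of the 4 genes, which the rule leaves out, numbered 479 and 420. The difference in share was 1.14 points without the shared barcodes, 1.20 without shallow copies, and 1.06 without cells with 3 or more UMIs of other cell types.

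**Figure D1:**
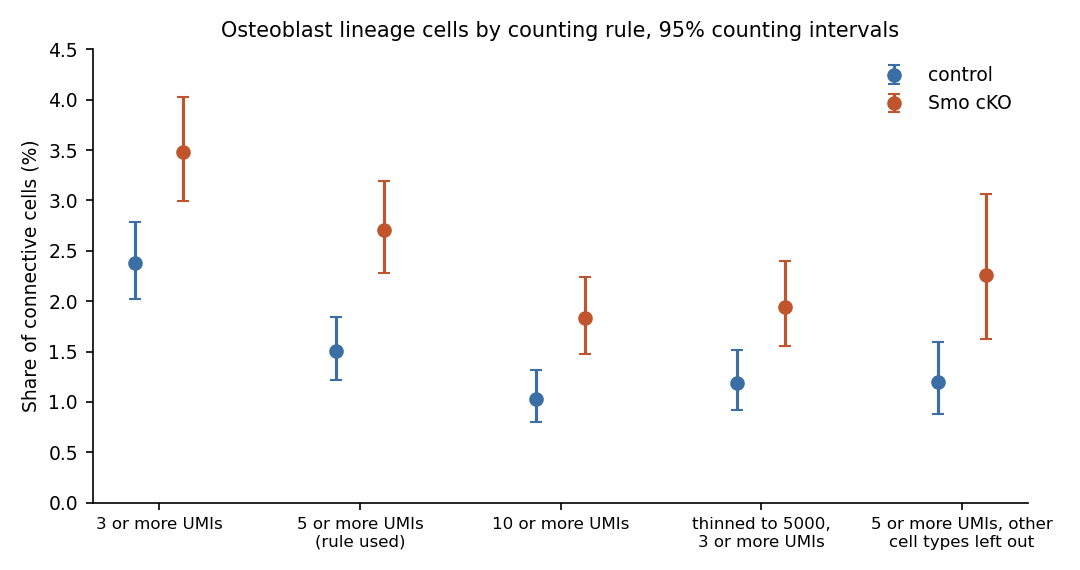
Share of connective cells that were osteoblast lineage cells, in percent, in the control and *Smo* cKO libraries under 5 ways of counting them; points are shares and bars are 95% Clopper-Pearson intervals of counting error. The *Smo* cKO point lies above the control point under each of the 5 rules, at 2.71% against 1.51% under the rule used.

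Of the genes that chose the cells, *Ibsp* was found in nearly all members and osteocalcin in few. *Ibsp* (chromosome 5, 104299171 to 104311469) had 2977 UMIs in 86 of 95 control members, or 1728 CPM, and 4807 UMIs in 122 of 136 *Smo* cKO members, or 1936 CPM. Per cell, *Ibsp* ranged from 0 to 215 UMIs per 10000 with a median of 9.59 in the control, and from 0 to 1027 with a median of 7.25 in the *Smo* cKO library. Because *Ibsp* helped to choose the cells, nothing is read from how these values differ between libraries. In cells with *Ptprc*, which should lack the gene, *Ibsp* was found in 1.12% and 1.88%, at median depths of 3812 and 4167 UMIs. *Sp7* (chromosome 15, 102356606 to 102367182), the factor that commits cells to the lineage, had 115 UMIs in 50 control members and 145 in 67 *Smo* cKO members, 66.8 and 58.4 CPM.

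*Bglap* (chromosome 3, 88383501 to 88384464) had 1665 UMIs in 17 control members and 1626 UMIs in 31 *Smo* cKO members, 967 and 655 CPM. *Bglap2* (chromosome 3, 88377736 to 88378699) had 937 UMIs in 21 and 1327 UMIs in 34 members, 544 and 534 CPM. Another copy beside them, *Bglap3* (88368616 to 88372743), had 16 and 9 UMIs. These neighboring genes are near-identical copies, so how reads were divided between *Bglap* and *Bglap2* is uncertain, and their sum is used below. A single cell held 37.6% of the summed *Bglap* and *Bglap2* UMIs among control members, and another held 41.6% of those among *Smo* cKO members. The sums over members therefore rest on few cells for these genes. Together they had 1511 and 1189 CPM in all members, and 4112 and 569.7 in the 46 and 40 members under 3 UMIs of the markers of other cell types described above. With the limit of the rule at 3 or 10 UMIs they had 940.4 and 902 or 2507 and 1687 CPM. These levels are set in part by the rule, and nothing is read from how they differ between libraries.

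**Figure D2:**
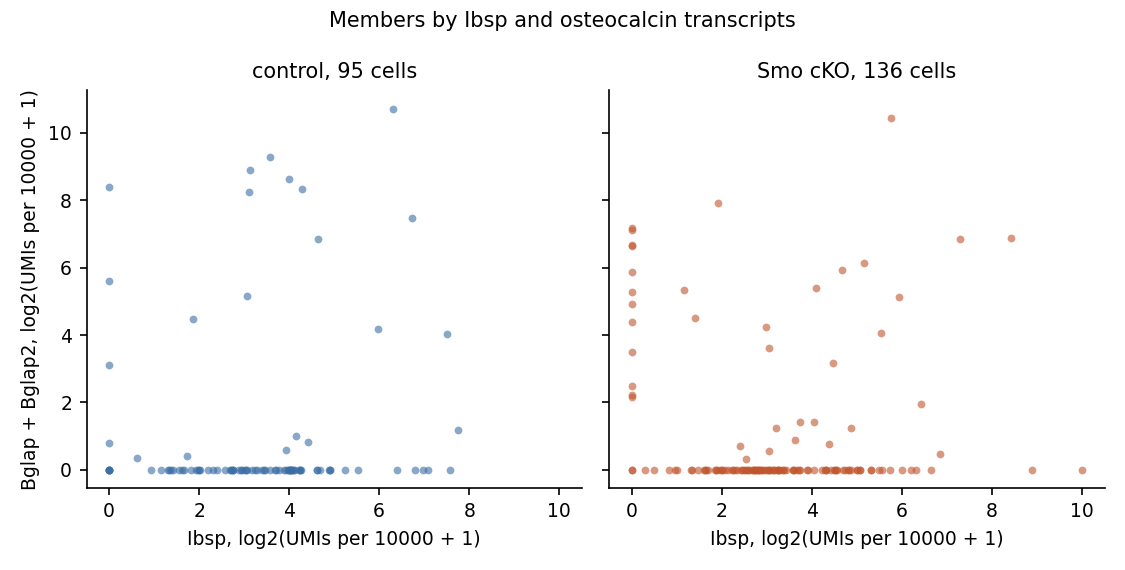
Each point is 1 member, by its *Ibsp* UMIs per 10000 (x axis) and its summed *Bglap* and *Bglap2* UMIs per 10000 (y axis), both as log2 of the value plus 1, in the control (left, 95 cells) and *Smo* cKO library (right, 136 cells). Most points lie on the x axis, with 73 control and 99 *Smo* cKO members at 0 UMIs of *Bglap* and *Bglap2*, and 14 and 29 members have 5 UMIs or more.

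At the threshold, the 16 control and 17 *Smo* cKO members with 5 or 6 UMIs of the 4 genes had 26.5 and 24.6 CPM of *Alpl* and 262 and 364 CPM of *Mmp13*. The 55 and 39 connective cells with 3 or 4 UMIs, just outside it, had 29.4 and 6.23 CPM of *Alpl* and 293 and 582 CPM of *Mmp13*. Both sets lay below the members as a whole and above the other connective cells in *Alpl*, and the rule set its limit within a range without a gap.

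The profile of the members against other connective cells is given next as a description, because the cells were chosen on their transcripts. Among the 2415 genes with 50 CPM or more in members or other connective cells of each library, 54 (2.24%) were 2-fold or more higher in members in both libraries and 45 (1.86%) were lower. The 54 include the 4 genes that chose the cells and 50 others. Of the 54, 32 were under 50 CPM in the other connective cells of at least 1 library, and of the 45, 25 were so in members. Such genes were compared because they were high on the other side, so the minimum helped to set their direction, and nothing is read from how many genes of a list were higher or lower. The median log2 ratio over these genes was 0.11 for the control and 0.024 for the *Smo* cKO cells. Genes were ranked by the smaller of their ratios from both libraries. *Alpl*, the enzyme that releases phosphate for mineral, stood first among genes outside the rule, with 84.2 and 82.5 CPM in control and *Smo* cKO members against 1.07 and 0.907 CPM in other connective cells. *Mmp13* (chromosome 9, 7272514 to 7283331), a collagenase of osteoblasts and hypertrophic chondrocytes, had 782 and 885 CPM against 29.8 and 25.8, log2 ratios of 4.71 (interval 4.61 to 4.81) and 5.10 (5.01 to 5.19). It was found in 69 of 95 and 107 of 136 members and in 577 of 5729 and 459 of 4468 other connective cells. Osteopontin, *Spp1* (chromosome 5, 104435118 to 104441050), had 1245 and 2489 CPM against 291 and 340.0.

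Of the bone matrix list, 12 of 18 genes were compared and 4 were higher, of which *Ibsp*, *Bglap* and *Bglap2* chose the cells and *Spp1* did not. The 9 genes that did not choose the cells had a median log2 ratio of 0.40 and 0.44. Type I collagen differed by less than 2-fold, with *Col1a1* at 14428 and 12887 CPM in members against 9755 and 8782. Periostin, *Postn*, a periosteal matrix protein, had 4036 and 3403 CPM against 2016 and 2184. Of 21 genes that modify, fold and secrete collagen, 20 were compared and none was 2-fold higher or lower, with a median of 0.18 and 0.11. The collagen chaperone *Serpinh1*, for example, had 2349 and 3002 CPM in members and 2267 and 3004 in other connective cells. Among mineralization genes, 5 of 14 were compared and *Alpl* was the 1 that was higher. *Phospho1*, which releases phosphate inside matrix vesicles, was at 0 UMIs in the members of both libraries, and so was the osteocyte gene *Mepe*. Of 12 osteocyte genes 3 were compared, and of 20 cell cycle genes 5 were, and none differed 2-fold.

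Genes of cartilage were part of the profile as well. Of the chondrocyte list, 19 of 20 genes were in the feature list and 5 were compared. Of these *Acan*, *Col11a2*, *Comp* and *Sox9* were under 50 CPM in the other connective cells of both libraries and entered through the members alone, so no count or median over the 5 is given. Aggrecan, *Acan*, the large proteoglycan of cartilage, had 373 and 219 CPM in members against 48.7 and 31.7, and *Col11a1*, a minor fibrillar collagen of cartilage, had 571 and 709.9 against 110.1 and 126. *Col11a2*, its partner chain, had 65.0 and 66.8 CPM against 1.05 and 0.999, but came from 11 and 13 members. *Comp*, a pentameric protein of cartilage and tendon matrix, had 61.5 and 88.2 CPM against 19.2 and 6.53. *Sox9*, the master factor of cartilage and the driver of the CreER, had 97.5 and 57.2 CPM against 40.5 and 38.8, and was found in 56 and 64 members. The hypertrophic collagen *Col10a1* was at 0 UMIs in both libraries, and type II collagen, *Col2a1*, had UMIs in no control and 6 *Smo* cKO members. Of the tendon list, 4 of 7 genes were compared, 2 were higher and 1 was lower. Fibromodulin, *Fmod*, had 574 and 333 CPM in members, log2 ratios of 2.52 and 2.01 over other connective cells, and the tendon factor *Scx* had 237 and 264 against 85.3 and 105. The tendon matrix gene *Thbs4* went the other way, with 74.3 and 99.5 CPM in members against 206 and 256.

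The signaling genes *Bmp2*, *Pth1r* and *Tnfsf11* were among the genes higher in members. All were under 50 CPM in the other connective cells of both libraries and were compared because of the members. Counts by list are therefore descriptions here. *Bmp2*, a bone morphogenetic protein needed to start fracture repair, had 120.2 and 107 CPM against 16.8 and 14.7. Of the bone morphogenetic protein list, 8 of 25 genes were compared and 2 were higher, the other one being the target *Id2* with 113 and 172 CPM against 53.6 and 80.3. *Pth1r*, the receptor of parathyroid hormone, had 158 and 148 against 26.4 and 25.2, and was found in 78 of 95 and 108 of 136 members. *Tnfsf11*, which encodes the osteoclast-inducing ligand RANKL, had 54.6 and 86.6 CPM against 17.2 and 15.3, while its decoy receptor (osteoprotegerin) *Tnfrsf11b* had 6 and 10 UMIs in all. Of 12 genes that couple osteoblasts to osteoclasts 7 were compared, with *Tnfsf11* and *Mmp13* higher and *Ccl2* and *Ccl7* lower, and of 21 hormone and growth factor genes 11 were compared, with *Pth1r* higher and *Igf1* lower. The fibroblast growth factor receptors *Fgfr2* and *Fgfr3*, under 50 CPM in members, had 45.3 and 29.0 CPM against 5.51 and 4.06, and 16.3 and 12.1 against 1.28 and 0.907. The other genes among the 15 highest were *Tspan2*, *Edil3*, *Timp3* (an inhibitor of metalloproteinases), *Ptprd*, *Itga11* (a collagen receptor) and *S1pr1* (a receptor for sphingosine 1-phosphate), at 60.4 to 317 CPM in members except for *Tspan2* in the *Smo* cKO library, at 57.6.

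**Figure D3:**
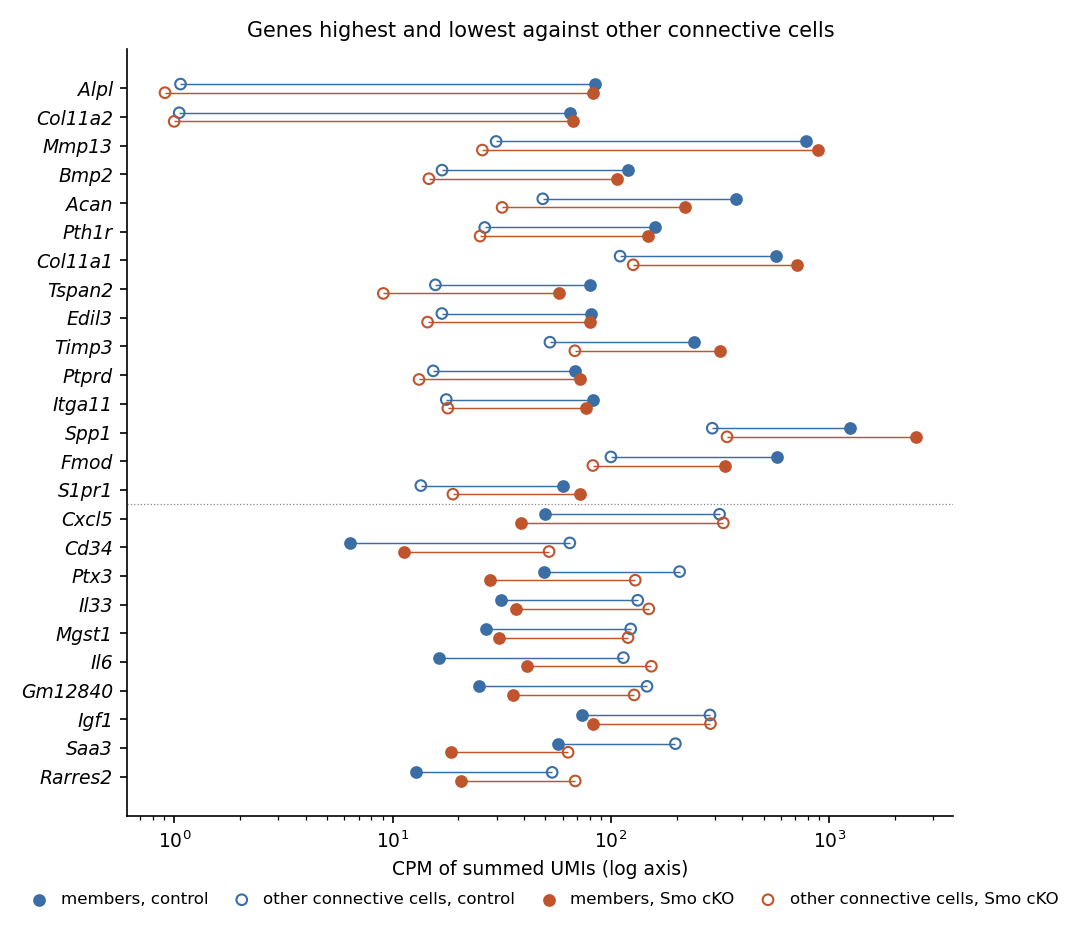
CPM on a log axis of the 15 genes highest (above the dotted line) and the 10 genes lowest against other connective cells, in members (filled) and other connective cells (open) of the control (blue) and *Smo* cKO (orange) libraries. Filled points lie to the right of open ones for the upper genes in both libraries, from *Alpl* at 84.2 against 1.07 CPM in the control, and to the left for the lower genes.

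Other genes were lower in members. Of the progenitor and fibroblast list, 12 of 15 were compared, 4 were lower (*Ly6a*, *Cd34*, *Col14a1* and *Sfrp4*) and 1, lumican (*Lum*), was higher. *Cd34*, a surface marker of adventitial cells, had 6.39 and 11.3 CPM in members against 64.8 and 52.1. The chemokine *Cxcl5*, lowest in the ranking, had 49.9 and 38.7 CPM against 314 and 327, and the cytokine *Il6* had 16.3 and 41.1 against 114 and 153. The chemokines *Ccl2* and *Ccl7* were lower too, with *Ccl2* at 374 and 745 CPM against 1327 and 2299. The growth factor *Igf1* had 73.7 and 82.5 against 284 and 286. Of the Wnt list, 6 of 22 were compared. The secreted inhibitors *Sfrp1*, *Sfrp2* and *Sfrp4* were lower and *Dkk3* was higher, with *Sfrp2* at 76.1 and 60.0 CPM against 248 and 209.9. *Cxcl12*, the chemokine of marrow stromal cells, had 62.7 and 58.8 CPM against 179 and 114, log2 ratios of -1.52 and -0.96, and none of the 3 marrow stromal genes compared, of 10 listed, was 2-fold lower in both libraries. The remaining genes of the 10 lowest were *Ptx3* (a soluble pattern receptor), *Il33* (an alarmin cytokine), *Mgst1*, *Gm12840*, *Saa3* and *Rarres2* (chemerin), of which *Ptx3* had 49.3 and 27.8 CPM against 206 and 129.

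Because *Fmod*, *Acan* and *Col11a1* were high in members, the members were also set against the connective cells most like them in these 3 genes. In 65 of 95 and 86 of 136 members the 3 genes made up 0.1% or more of UMIs, as they did in 387 of 5729 and 262 of 4468 other connective cells. The comparison used 538 control and 347 *Smo* cKO connective cells with under 5 UMIs of the rule genes at or above that share. Of 2406 genes compared, 13 (0.54%) were 2-fold or more higher in members in both libraries and 15 (0.623%) were lower. The 13 include the 4 genes that chose the cells, so that 9 others were higher here, against 50 others above. *Mmp13* was still higher, with 782 and 885 CPM against 124 and 85.1, and *Alpl* had 84.2 and 82.5 against 16.0 and 7.71. *Spp1* had 218 and 523 CPM in the comparison cells. Outside the rule genes, *Col11a2* ranked first, with 3.55 as the smaller of its log2 ratios. *S1pr1*, *Mef2c*, *Igfbp5* and *Timp3* were higher in members as well. *Bmp2*, *Pth1r*, *Runx2* and *Sox9* were not 2-fold different in both libraries, with *Bmp2* at 73.5 and 81.4, *Pth1r* at 103 and 66.7, *Runx2* at 75.1 and 65.8, and *Sox9* at 75.4 and 67.8 CPM in the comparison cells. Tenomodulin, *Tnmd*, a marker of mature tendon cells, was lower in members, with 15.1 and 16.1 CPM against 161 and 429.6, and so was *Thbs4*, with 328 and 627 CPM in the comparison cells. *Fmod*, which helped to choose the comparison cells, is itself on the tendon list. That list summed to 1985 and 2740 CPM in the comparison cells and to 569 and 724 CPM in other connective cells. The choice of comparison cells therefore helped to set these tendon values. All members were used, also those under the share of 0.1%.

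Osteocalcin was uneven among the members, and they were split by their *Bglap* and *Bglap2* UMIs into 0, 1 to 4, and 5 or more. These are ranges of a count and not cell types. In the control, 73 members had 0 UMIs, 8 had 1 to 4 and 14 had 5 or more, and in the *Smo* cKO library 99, 8 and 29 did. The highest range held 14.7% and 21.3% of members, which is a description, since *Bglap* and *Bglap2* also chose the cells. As a share of connective cells it was 0.222% and 0.577%, and the range with 0 UMIs was 1.16% and 1.97%. Cells of the highest range were shallower, with median UMIs of 5208 and 10903 against 15119 and 15523, and summed to 129006 and 441325 UMIs. They were also unlike in osteocalcin, at 20061 control and 6669 *Smo* cKO CPM of *Bglap* and *Bglap2*. Their median *Bglap* per cell was 134 and 11.6 UMIs per 10000. Ratios between libraries within this range therefore compare unlike cells.

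Several matrix and mineral genes were higher in the highest range. Of 2419 genes, 36 (1.49%) were 2-fold or more higher than in the range with 0 UMIs in both libraries and 38 (1.57%) were lower, and the median log2 ratio over all was -0.31 and -0.13. *Col1a1* stood at 12004 CPM in the range with 0 UMIs and 44331 in the highest range of the control, and at 10524 and 23661 in the *Smo* cKO library. *Alpl* went from 60.0 to 419 CPM and from 58.9 to 190.3. *Spp1* went from 486 to 10348 CPM and from 2147 to 4432. Of the 36, 24 were under 50 CPM in the range with 0 UMIs of at least 1 library, and of the 38, 24 were so in the highest range, so the minimum helped to set their direction and counts by list are descriptions. Beside *Bglap* and *Bglap2*, which set the ranges, and *Spp1* and *Col1a1*, the bone matrix genes 2-fold or more higher included *Omd*, *Col13a1* and *Ifitm5*, a membrane protein of mineralizing osteoblasts, which had 1 UMI in the 73 control members with 0 UMIs of *Bglap* and *Bglap2* and 55 UMIs in the 14 of the highest range, and 11 and 49 UMIs in the *Smo* cKO library. *Dmp1*, an early osteocyte gene, had 0 UMIs in the lowest range of both libraries and 16 and 28 in the highest, but in 2 and 5 members in all. The sphingomyelinase *Smpd3*, needed for bone mineralization, went from 0.705 to 271 CPM and from 1.61 to 138, and 1 cell held 50% of its UMIs in the control. *Col11a2*, high in the members as a whole, had 1.41 and 2.14 CPM in the lowest range and 845 and 367 in the highest.

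Other genes of the profile did not follow osteocalcin in the same way. *Mmp13* had 679 and 814 CPM in the lowest range, 1424 and 2336 with 1 to 4 UMIs, and 1046 and 609.5 in the highest. *Tnfsf11* was lower in the highest range, with 82 and 201 UMIs in the range with 0 UMIs and 2 and 3 in the highest, or 57.8 and 108 against 15.5 and 6.80 CPM. *Wnt5a*, a ligand of noncanonical Wnt signaling, had 54.3 and 92.2 against 15.5 and 20.4 CPM. The collagen crosslinking enzyme *Loxl2* had 484 and 674 against 147 and 240.2, and *Tspan2* had 87.5 and 70.7 against 7.75 and 4.53, which rest on 1 and 2 UMIs. *Enpp1*, which makes the mineralization inhibitor pyrophosphate, had 170.0 and 263 CPM in the lowest and 15.5 and 131 in the highest range, and was the 1 gene of the mineralization list that was lower, beside *Alpl* and *Smpd3* that were higher among 6 compared. In the highest range of the control, 15.5 CPM stands for 2 UMIs, for *Enpp1* and *Wnt5a* as for *Tnfsf11*. *Ibsp* and *Sp7* helped to choose the cells, and a member with 0 UMIs of *Bglap* and *Bglap2* could pass only through these 2 genes, so their values across the ranges are set in part by the rule and nothing is read from them. *Ibsp* had 1415 and 1752 CPM in the lowest and 3689.8 and 2486 in the highest range, and *Sp7* had 68.4 and 63.8 against 69.8 and 54.4.

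**Figure D4:**
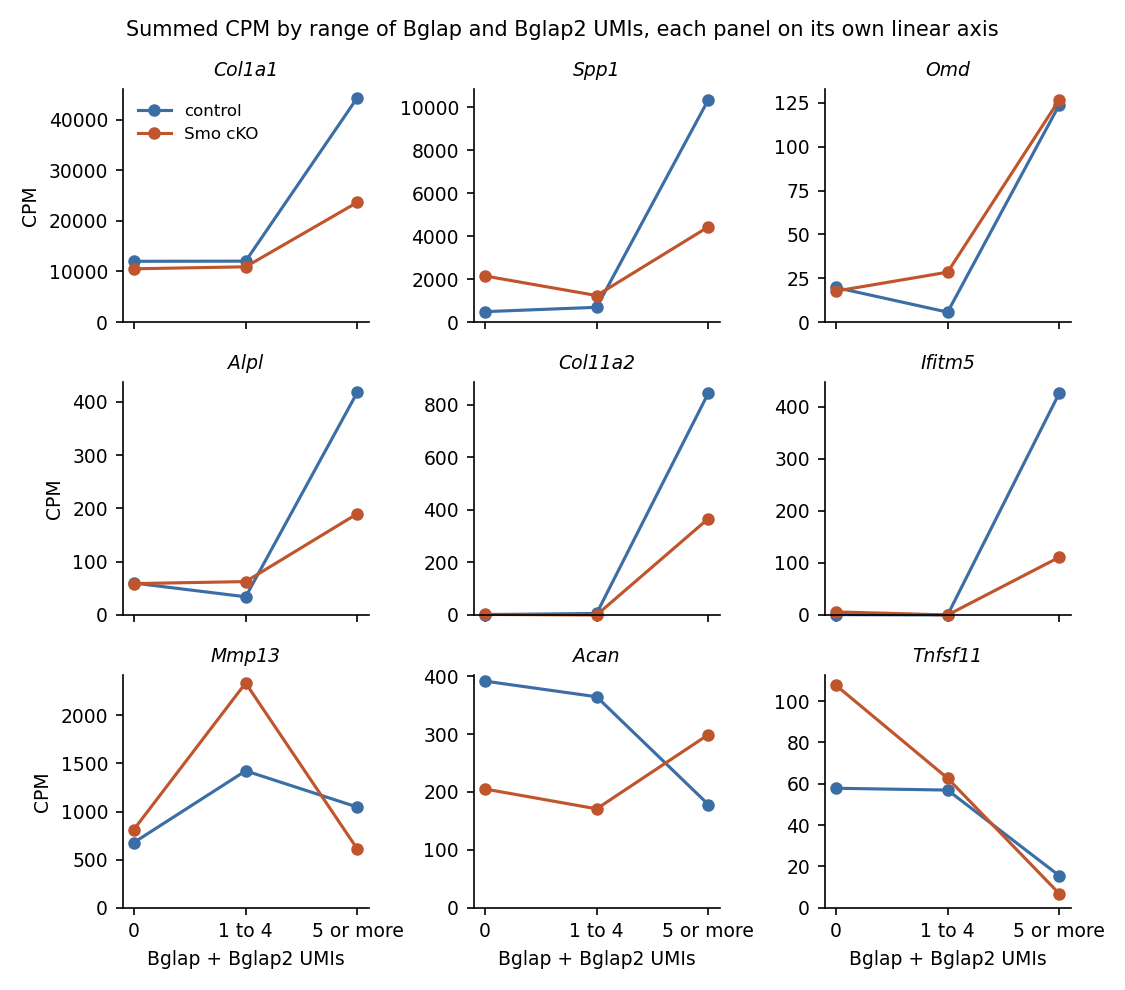
Summed CPM of 9 genes (y axes, linear, from 0) in members with 0, 1 to 4, and 5 or more UMIs of *Bglap* and *Bglap2* (x axis), in the control (blue; 73, 8 and 14 cells) and *Smo* cKO library (orange; 99, 8 and 29 cells). *Col1a1*, *Spp1*, *Omd*, *Alpl*, *Col11a2* and *Ifitm5* stand highest in the last range in both libraries, *Tnfsf11* stands lowest there, and *Acan* moves in opposite directions in the libraries.

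Between the libraries, few of all compared genes differed by 2-fold or more when summed over all members. Some genes of the bone lists depended on which members were counted. Of 2552 genes with 50 CPM or more in at least 1 library, 21 (0.823%) were 2-fold or more higher in *Smo* cKO members and 14 (0.549%) were lower, with a median log2 ratio of -0.0039. Of these, 17 of the 21 and 8 of the 14 were under 50 CPM in the library where they were lower. In other connective cells, with 2453 genes compared, 0.652% were higher and 0.163% lower. No ratio is given for the 4 genes that chose the cells, because the rule sets their levels in part. *Alpl* had a log2 ratio of -0.028 (-0.34 to 0.29), *Runx2* had 0.082 (-0.22 to 0.38) and *Mmp13* had 0.18 (0.08 to 0.28). In the 14 and 29 members with 5 or more UMIs of *Bglap* and *Bglap2*, *Alpl* was at -1.14 (-1.65 to -0.62) and *Mmp13* at -0.78. These 14 and 29 cells were unlike, at 20061 and 6669 CPM of *Bglap* and *Bglap2* and median depths of 5208 and 10903 UMIs. In members with 0 UMIs of *Bglap* and *Bglap2*, *Alpl* and *Mmp13* were at -0.025 and 0.26. In the 11 and 16 members with at most 2000 genes *Mmp13* was at -2.18. These cells had 913 and 1412 UMIs of *Bglap* and *Bglap2*, which were 21846 and 25757.5 CPM, against 1511 and 1189 CPM in all members. At so low a total, a gene near 50 CPM has only a few UMIs. Since few of all genes passed 2-fold, the counts by list that follow are descriptions and not particular to bone genes. Without the 4 genes that chose the cells, none of the 9 compared genes of the bone matrix list, the 4 of the osteoblast factor list, the 5 of the mineralization list or the 20 of the collagen secretion list was 2-fold higher or lower over all members, and their medians were -0.092, 0.058, 0.22 and 0.046.

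*Spp1* differed in opposite directions within the members. In all, it had 2145 UMIs in 78 of 95 control and 6181 in 118 of 136 *Smo* cKO members, 1245 and 2489 CPM, a log2 ratio of 1.00 (0.93 to 1.07) against 0.22 in other connective cells. Members with 0 UMIs of *Bglap* and *Bglap2* had 486 and 2147 CPM, a ratio of 2.14 (2.03 to 2.26). Their cells ranged from 0 to 51.6 UMIs per 10000 with a median of 1.43 in the control, and from 0 to 1038 with a median of 4.47 in the *Smo* cKO library, where 1 cell held 35.8% of the UMIs. Without the top cell of each library the ratio in these members was 1.81. Members with 5 UMIs or more had 10348 and 4432 CPM, a ratio of -1.22 (-1.32 to -1.12), in 14 and 29 cells. These sets were unlike in osteocalcin, with 20061 control and 6669 *Smo* cKO CPM of *Bglap* and *Bglap2*. The ratio therefore also compares cells at different osteocalcin levels.

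*Acan*, *Fmod* and *Sox9* were lower in *Smo* cKO members as a whole, but not in every set of them. *Acan* had 642 UMIs in 82 of 95 control and 545 in 102 of 136 *Smo* cKO members, 373 and 219 CPM, a log2 ratio of -0.76 (-0.93 to -0.60), and -0.62 (-0.70 to -0.54) in other connective cells. Per cell the median was 2.96 of at most 20.7 UMIs per 10000 for control cells and 1.43 of at most 27.2 for *Smo* cKO cells. The cells of both libraries overlapped. With cells thinned to 5000 UMIs, *Acan* was found in 73.9% and 52.8% of members, a difference of -21.0 points (-32.9 to -7.80). *Fmod* had 574 and 333 CPM and a ratio of -0.79 (-0.92 to -0.65), against -0.27 in other connective cells, and *Sox9* had 97.5 and 57.2 CPM and -0.77 (-1.10 to -0.44) against -0.063. In members with 0 UMIs of *Bglap* and *Bglap2* the ratios of *Acan* and *Fmod* were -0.93 and -1.03, and in those with 5 UMIs or more they had the other sign, at 0.75 (0.10 to 1.45) and 0.60 (0.12 to 1.11), where 1 cell held 52.2% of the 23 control UMIs of *Acan*. The sets with 5 UMIs or more held unlike levels of osteocalcin, as given above. Without cells with 3 or more UMIs of other cell types *Acan*, *Fmod* and *Sox9* were at -0.20, -0.11 and 0.27, and with at most 2000 genes at 0.54, 0.25 and 0.93. The ratios with at most 2000 genes come from 11 and 16 cells with low total UMIs, as given above, and carry no interval. Thinned to 5000 UMIs, *Sox9* was found in 29.5% and 22.8% of members, a difference whose interval held 0 (-18.9 to 5.02 points). *Col11a1* did not share the direction, with 571 and 709.9 CPM in all members.

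*Col2a1* (chromosome 15, 97975602 to 98004695), the main collagen of cartilage, had 0 UMIs in the 95 control members and 565 in 6 of the 136 *Smo* cKO members. Against a limit of 3 UMIs in the control members, this is a log2 ratio of at least 7.03. The 6 cells had 270, 184, 65, 44, 1 and 1 UMIs of *Col2a1*, and the 4 with the most had 37, 185, 19 and 60 UMIs of *Bglap* and *Bglap2* and 66, 252, 50 and 23 UMIs of *Ibsp*, so that cartilage and bone transcripts were found under the same barcodes. Whether each of these barcodes held a single cell was not tested. Among all connective cells, 4 in each library had 5 or more UMIs of *Col2a1*, and it had 1.28 and 0.569 CPM in other connective cells. The value in members thus rests on 4 cells. *Comp* in the highest range of the *Smo* cKO library (469 CPM) came in large part from the same cells, since those with 270 and 184 UMIs of *Col2a1* had 87 and 63 of its 207 UMIs.

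Interferon-stimulated genes were higher in *Smo* cKO members. *Isg15* (chromosome 4, 156199424 to 156200818), an interferon-induced ubiquitin-like protein, had 14 UMIs in 7 of 95 control and 446 UMIs in 66 of 136 *Smo* cKO members, 8.13 and 179.6 CPM, a log2 ratio of 4.47 (3.70 to 5.35). It was found in 7.37% and 48.5% of members and in 9.01% and 38.7% of cells with *Ptprc*. In members with 5 or more UMIs of *Bglap* and *Bglap2*, the ratio of *Isg15* was 2.45, on 3 and 56 UMIs. The ratio was positive but lower still under an alternative given below. The 20 genes of the list summed to 169.5 and 801 CPM, a ratio of 2.24 (2.06 to 2.42). *Bst2* had 67.9 and 184 CPM and *Ifi27l2a* had 45.3 and 149. Of the list, 3 of 20 genes were compared and all 3 were 2-fold or more higher, against 0.823% of the 2552 genes. Of these 3, 2 were under 50 CPM in control members and were compared because of the *Smo* cKO members. The difference was not particular to the members, since other connective cells had 174 and 1014 CPM of the list, and *Isg15* had a ratio of 3.51 there. The chemokine *Cxcl10*, itself interferon-induced, had 9.87 and 54.8 CPM, at 2.47 (1.74 to 3.29), and *Lgals3bp* had 16.8 and 64.8, at 1.95 (1.37 to 2.57).

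The secreted factor *Ostn* had more UMIs in *Smo* cKO members. *Ostn* (chromosome 16, 27307489 to 27351212) encodes osteocrin, a peptide of osteoblasts and muscle, and had 31 UMIs in 9 of 95 control and 228 in 23 of 136 *Smo* cKO members, a log2 ratio of 2.35 (1.81 to 2.94). It had 0.47 and 0.845 CPM in other connective cells. With each member thinned to 5000 UMIs, *Ostn* was found in 3.41% of 88 control and 10.6% of 123 *Smo* cKO members, and the interval of the difference, 7.16 points (-0.329 to 14.2), held 0. Within members with 5 or more UMIs of *Bglap* and *Bglap2*, it was found in 5 of 14 and 14 of 29 cells, at 209 and 385 CPM, a ratio of 0.88 (0.29 to 1.52). Within those with 0 UMIs it had 2 UMIs in 2 of 73 and 48 in 7 of 99 cells, a ratio of 4.19 (2.26 to 7.27). The cytokine *Lif* had 31 and 165 UMIs, at 1.88 (1.32 to 2.49) against 0.78 in other connective cells. *Tnfsf11* had 54.6 and 86.6 CPM, at 0.67 (0.31 to 1.03), against -0.17 in other connective cells. It was at -1.19 in members with 5 or more UMIs of *Bglap* and *Bglap2*, on 2 and 3 UMIs. Thinned to 5000 UMIs, 23.9% and 28.5% of members had *Tnfsf11*, a difference of 4.59 points (-7.65 to 16.1) whose interval held 0. *Ccl2* had 374 and 745, at 0.99 (0.86 to 1.12). *Egr1*, an immediate early gene, had 124 and 252 CPM, at 1.03 (0.80 to 1.26), and the progenitor surface gene *Ly6a* had 48.8 and 106, at 1.12 (0.76 to 1.49). In members with at most 2000 genes, *Egr1* was not higher. The predicted gene *Gm10036* was at 2.29, and at 2.02 in other connective cells.

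Of the genes lower in *Smo* cKO members, *1500015O10Rik*, which encodes a secreted protein of cartilage (augurin), had 655 UMIs in 74 of 95 control and 301 in 72 of 136 *Smo* cKO members, 380.3 and 121 CPM, a log2 ratio of -1.65 (-1.85 to -1.45) against -0.42 in other connective cells. It was -2.36 in members with 0 UMIs of *Bglap* and *Bglap2* and 0.082 in those with 5 UMIs or more, and -0.63 without cells with 3 or more UMIs of other cell types. *Sbsn* had 73.7 and 15.7 CPM, at -2.23 (-2.79 to -1.70), and the collagen-processing enhancer *Pcolce2* had 51.7 and 18.5, at -1.48 (-2.03 to -0.95). *Sbsn* was at -0.77 in members with 5 or more UMIs of *Bglap* and *Bglap2*, and had the other sign in members with at most 2000 genes. Lubricin, *Prg4*, had 148 and 64.0 CPM, at -1.21 (-1.50 to -0.92), and *Anxa8*, *Hist1h2ap*, *Slc39a1* (a zinc importer) and *Saa3* (an acute phase protein) had ratios of -1.24, -1.30, -1.13 and -1.63. *Saa3* and *Anxa8* had about the same ratio in other connective cells, at -1.63 and -1.46. Of the cell cycle list, 8 of 20 genes were compared and none was 2-fold lower or higher, with a median of -0.47 and sums of 1158 and 859 CPM.

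Several ranked genes moved with markers of other cells or with single cells. *Acta1*, a muscle actin, had 72.0 and 14.9 CPM, but 88.7% of its control UMIs were in 1 cell, without which (and without the top *Smo* cKO cell) the log2 ratio went from -2.27 to 0.74. The muscle factor *Myog* had 29 UMIs in 4 and 255 in 28 members, at 2.61 (2.05 to 3.22), and 1.15 in other connective cells. All 10 muscle markers were found in members of both libraries, with sums of 209 and 176 CPM, led by *Acta1* among control and *Myog* among *Smo* cKO cells. A single cell held 80.3% of these UMIs among control members, and another held 22.2% among *Smo* cKO members. The control sum therefore rests largely on 1 cell. *Cd74*, an antigen-presentation gene of macrophages, had -2.61, with 61.4% of its control UMIs in 1 cell, and -1.34 without the top cells. Macrophage markers, all 10 of them found in both libraries, summed to 268 and 382 CPM with *Lyz2* the most abundant at 70.2 and 134. The chemokines *Ccl5* and *Ccl8* had ratios of 4.21 and 3.79, with 56.2% and 80.6% of their *Smo* cKO UMIs in 1 cell, and 3.61 and 1.85 without the top cells. The part of other cell types in these values was not tested.

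Markers of further cell types were summed in the same way. Neutrophil markers summed to 185 and 89.0 CPM, led by *S100a8*, and were found in 33 of 95 control and 80 of 136 *Smo* cKO members. A single cell held 32.1% of these UMIs among control members, and another held 27.6% among *Smo* cKO members. Erythroid markers summed to 896 and 835 CPM, led by *Hbb-bs*, below the 1475 and 2069.7 of other connective cells. A single cell held 19.7% of the erythroid UMIs of control members, and another held 51.4% of those of *Smo* cKO members. Osteoclast markers, led by *Acp5*, summed to 47.0 and 66.8 CPM, with 2 and 3 of 7 at 0. Endothelial, mural, lymphoid and epithelial lists each summed to under 13 CPM in both libraries, and 5 and 3 of the 6 lymphoid and of the 6 epithelial markers were at 0.

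**Figure D5:**
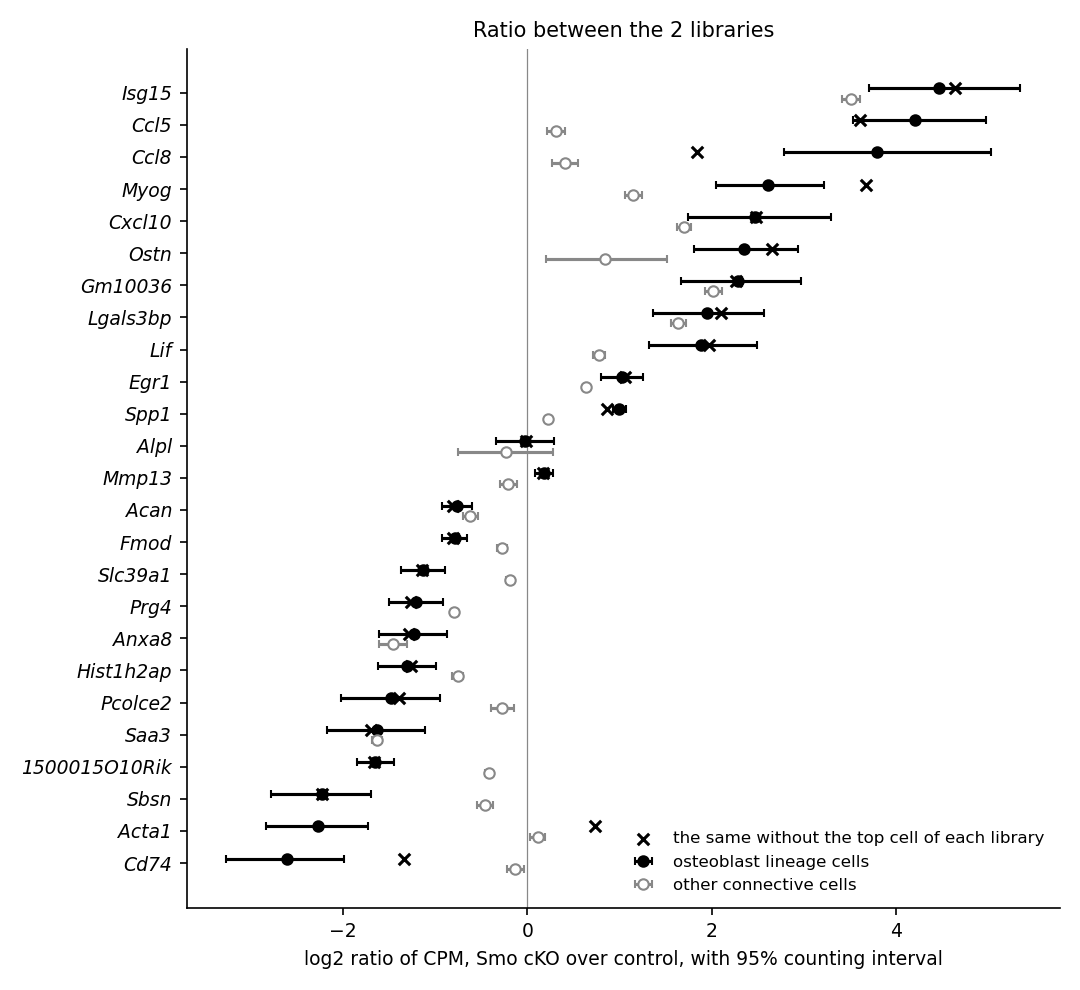
Log2 ratio of CPM, *Smo* cKO over control, of 25 genes in osteoblast lineage cells (black) and in other connective cells (gray), with 95% counting intervals; crosses give the members without the cell with the most UMIs of the gene in each library. *Isg15* is high in both groups of cells, *Ostn* and *Ccl5* have higher ratios in members than in other connective cells, *Alpl* and *Mmp13* lie near 0 over all members, and *Acta1* changes sign without the top cells.

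The deleted gene and its pathway were read at low counts in the members. *Smo* (chromosome 6, 29735503 to 29761365), the Hedgehog signal transducer, had 37 UMIs in 23 of 95 control and 26 in 24 of 136 *Smo* cKO members, 21.5 and 10.5 CPM, a log2 ratio of -1.04 (-1.82 to -0.27), against -0.56 in other connective cells. *Smo* was found in 24.2% of control and 17.6% of *Smo* cKO members, a difference of -6.56 points (-17.5 to 3.88). With members thinned as above, the shares were 11.4% and 4.88%, a difference of -6.49 points (-15.2 to 0.892). Both intervals held 0, whereas in other connective cells the thinned difference was -2.81 points (-3.96 to -1.65). UMIs were counted over the whole gene, so transcripts of a recombined allele cannot be told apart from others. The Hedgehog receptor *Ptch1* had 22 and 22 UMIs, at -0.53 (-1.45 to 0.39), and *Gli3*, a transcription factor of the pathway, had 62 and 83, at -0.11 (-0.60 to 0.39). The ligands *Shh* and *Ihh* had 0 UMIs in the members of both libraries, *Dhh* had 1 and 0, and *Gli1*, a transcriptional target, had 0 and 1. None of the 15 pathway genes reached 50 CPM in members, and *Gas1*, a coreceptor, was lower than in other connective cells, with 35.4 and 27.0 CPM against 99.9 and 68.9. Transcripts of the tdTomato reporter were found in 0 of 95 control members, which allows a share of cells with a UMI of up to 3.16% (3 counts of the total) and sets no limit on cells that express it, and in 5 of 136 *Smo* cKO members (3.68%, interval 1.20% to 8.37%). Other connective cells had 0.733% and 1.97%, and cells with *Ptprc* 0.149% and 0.712%. The members that had recombined could not be picked out by this transcript.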

How the data were processed

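Callus cells were dissociated, depleted of dead cells and loaded on the 10x Chromium platform, pooled by genotype. Per the submitters' processing notes, Cell Ranger 3.0.2 and the mm10 build were used, and the authors deposited raw UMI counts per gene and called barcode. From these counts, with Python 3.11.15, numpy 2.4.6, scipy 1.17.1 and pandas 2.3.3, member UMIs were summed per library to CPM. Log2 ratios of CPM carry exact intervals for a ratio of 2 Poisson counts, and a gene at 0 was set to 3 counts. Mitochondrial genes were the 13 named mt-. Thinning drew UMIs without replacement. The calculation was tested on simulated Poisson counts, which hold no spread between cells or animals, so that spread was not tested. Positions came from GENCODE vM21 on GRCm38.

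The genes named came from 26 lists, the 15 highest and 10 lowest against other connective cells, and the 10 highest and 10 lowest between libraries with an interval without 0, other than genes of hemoglobin, immunoglobulins, ribosomes, mitochondria and sex. Alternatives changed the CPM minimum, the rule, the filters and the cells left out. Genes named across ranges of osteocalcin, and the *Fmod*, *Acan* and *Col11a1* comparison, were chosen after their values were seen. Members and lists were chosen with earlier results of these data known. 1 listed gene was not matched.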

Additional observations from a re-analysis of the deposited data

How the results depend on the processing

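No paired analysis was possible because each genotype has 1 library, and no replicate could be left out. The larger share of osteoblast lineage cells in the *Smo* cKO library kept its direction under all 10 alternatives, at 0.75 to 1.72 points against 1.20. Counts of genes past 2-fold depended on the CPM minimum. Between libraries, 21 genes higher and 14 lower became 67 and 51 at 20 CPM and 811 and 890 with none, and 37 higher with the mean of single-cell CPM. In smaller sets of cells the numbers were 746 and 369 in the 11 and 16 members under 2000 genes, 114 and 59 in the 46 and 40 members under 3 UMIs of other cell types, 327 and 209 in members with 5 or more UMIs of *Bglap* and *Bglap2*, and 24 and 26 in those with 0. Against other connective cells, 54 higher and 45 lower became 91 and 92 at 20 CPM and 83 and 101 without cells with 3 UMIs of other cell types.

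Single genes also turned. *Acta1*, at -2.27, was 0.74 without the top cells, 0.43 at 10 UMIs of the rule genes, 0.79 without shared barcodes, 0.23 in members with 5 or more UMIs of *Bglap* and *Bglap2*, and 2.13 or 0.88 without cells that had 3 UMIs or 0.1% of UMIs of other cell types. *Cd74* was 0.54 without cells with 3 such UMIs. In members with 5 or more UMIs of *Bglap* and *Bglap2*, *Ccl8* was -1.19 and *1500015O10Rik* 0.082, and under 2000 genes *Egr1* was -0.034, *Sbsn* 1.61 and *1500015O10Rik* 1.47. Ratios under 2000 genes came from 11 and 16 cells with low total UMIs and carry no interval. The causes of these turns were not tested. *Isg15* and *Ostn* stayed positive under each of these alternatives, at 0.83 to 4.90 and 0.88 to 4.19. Alternatives that left out shared barcodes, shallow copies, cells with 0.1% of UMIs of other cell types or the top cell, those by range of osteocalcin, and the sum of *Bglap* and *Bglap2* were chosen after seeing the data.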
